A study of Drosophila melanogaster with 2 samples.

Results

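The 281 regions described here are binding peaks of the fly protein CG11247 that lay between protein-coding genes but close to the start of one. They were chosen by position alone, from the 4476 peaks that the authors' thresholded list of pooled reads held on arms 2L, 2R, 3L, 3R and X and chromosome 4. A peak was kept where its summit lay more than 500 bp and at most 3000 bp from the nearest protein-coding transcription start site (TSS) and inside no protein-coding transcript. Chromosome 4 gave none, and the arms gave 61 (2L), 52 (2R), 61 (3L), 63 (3R) and 44 (X). The study was a chromatin immunoprecipitation with sequencing (ChIP-seq) of whole Drosophila melanogaster embryos collected over 0-24 hours, from the strain CG11247-GFP. These transgenic flies express a CG11247-eGFP fusion, which was precipitated with an antibody against GFP, and the 2 biological replicates form a single group. Whole embryos of mixed age were used, so a peak cannot be assigned to a cell type or an hour of development. What drives the transgene is not stated in the labels, and the control library was not analysed here.

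Sequence between genes near a start site can hold promoter-proximal enhancers, insulators and promoters of noncoding genes. Insulator proteins such as CTCF and Su(Hw) bind defined DNA sites and are known in flies for separating neighbouring regulatory domains. The DNA replication-related element (DRE), which is read by Dref and BEAF-32, and Motif 1, which is read by M1BP, are instead known from promoters of broadly expressed genes.

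The sequences at some of the strongest peaks are given as examples, and they do not show what the regions do. The summit base with 50 bases to each side is printed for the strongest peak (near sp3), the next strongest (near hll), the strongest with a CTCF site among those on 2L, 3L, 3R and X (near jp, which encodes junctophilin) and the strongest downstream of its start site (near the cuticle protein gene Cpr76Ba). They were read on the plus strand of the RefSeq Release 6 (dm6) assembly, and capitals mark a match to the CTCF core.
sp3, chr3R:21520321-21520421: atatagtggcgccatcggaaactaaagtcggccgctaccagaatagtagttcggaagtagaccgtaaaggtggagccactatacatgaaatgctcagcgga
hll, chr2L:14024030-14024130: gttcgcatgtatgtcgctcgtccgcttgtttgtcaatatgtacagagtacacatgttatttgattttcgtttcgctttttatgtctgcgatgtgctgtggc
jp, chr2L:9567458-9567558: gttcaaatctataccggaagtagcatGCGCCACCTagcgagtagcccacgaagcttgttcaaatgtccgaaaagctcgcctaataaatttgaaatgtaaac
Cpr76Ba, chr3L:19516679-19516779: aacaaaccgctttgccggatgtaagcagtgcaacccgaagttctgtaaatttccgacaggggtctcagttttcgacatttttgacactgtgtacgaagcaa

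The authors' lists give for each peak a signal, which is a score of their peak caller that grows with read number, so a signal is compared here only within 1 list. Read numbers are not in the lists and the depth is therefore unknown. Peaks are the unit of every share below; they are not replicates of a condition, 1 group of 2 samples allows no test between conditions, and the 95% intervals cover counting error over peaks only. Of the 134262 ranked summits on the arms, 3.33% were in the thresholded list, which asks for an irreproducible discovery rate of at most 0.01. The replicates' own thresholded lists held 3000 peaks (replicate 1) and 2678 peaks (replicate 2) on the arms, of which 196 and 160 met the same position rule. In the pooled list the comparison classes were 739 intronic peaks at the same distances, 422 distal intergenic peaks (over 3000 bp away) and 2079 promoter peaks (within 500 bp of a start site).

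Intergenic summits near a start site passed about as often as summits elsewhere, and the share that passed fell with distance. Of 9020 ranked summits of this kind, 281 passed, which is 3.12% (95% Wilson interval 2.78 to 3.49%) against the background of 3.33%. The share outside the class was 3.35%, and the difference of -0.23 points had a Newcombe interval of -0.59 to 0.16 that included 0. Intronic summits at the same distances passed more often, at 5.03%, and the difference of -1.91 points (-2.41 to -1.40) was larger than its counting error. Distal intergenic summits passed less often, at 1.69%, with a difference of 1.42 points (1.04 to 1.83). Promoter summits passed far more often, at 11.7%, with a difference of -8.58 points (-9.16 to -7.98). Distal intronic summits passed at 2.09%, and exonic summits more than 500 bp from a start site at 0.71%. In the replicates' own lists 196 of 7466 class summits passed in replicate 1 (2.63%) and 160 of 8404 in replicate 2 (1.90%). All summits there passed at 2.78% and 2.17%, and whether these small gaps exceed the counting error was not tested.

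**Figure D1:**
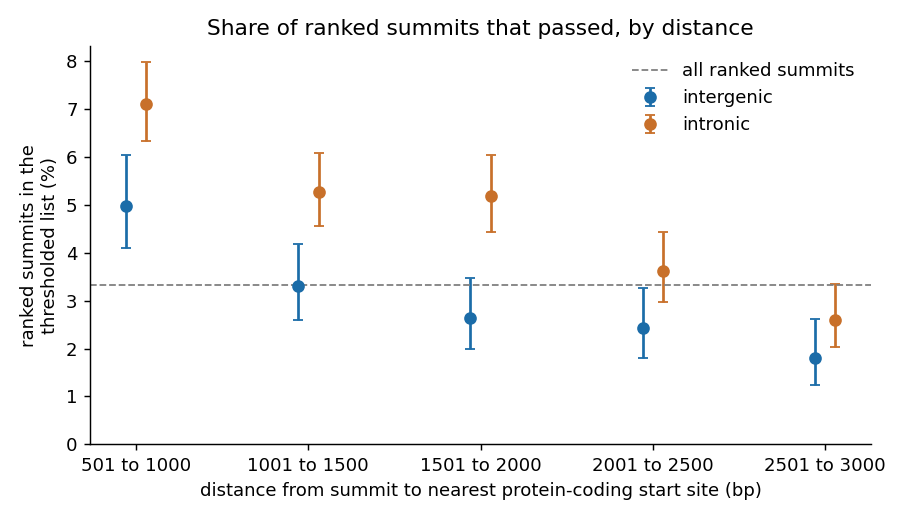
Share of ranked summits in the thresholded list (percent, y axis) in 5 bins of distance to the nearest start site (bp, x axis), for intergenic and intronic summits, with 95% Wilson bars and the share over all summits as a dashed line. Intergenic shares go from 4.98% in the nearest to 1.80% in the farthest bin, with intronic points above them in every bin.

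By distance, the shares of intergenic summits that passed were 4.98% above 500 and up to 1000 bp, 3.31% up to 1500 bp, 2.63% up to 2000 bp, 2.43% up to 2500 bp and 1.80% up to 3000 bp. The first bin exceeded the last by 3.18 points (1.99 to 4.37). The intronic summits went from 7.11% to 2.60% over the same bins, a difference of 4.51 points (3.43 to 5.56), so a higher share near the start site was not particular to intergenic DNA. The class passed at between 2.66% (3R) and 3.57% (3L) on the 5 arms with members, with intervals that overlapped.

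The replicates gave unequal support to these peaks, as they did to all passing peaks, and support rose with the pooled signal. That signal is scored on the pooled reads of the same replicates, so such a rise is largely built in. A passing peak of replicate 1 overlapped 176 of the 281 members (62.6%), one of replicate 2 overlapped 145 (51.6%), and 117 (41.6%, 36.0 to 47.5%) had one in both. Neither replicate's list held a passing peak at 77 members (27.4%), although 227 (80.8%) overlapped the authors' conservative list, which was built on the true replicates. Over all passing peaks the shares were 63.2% (replicate 1), 57.3% (replicate 2), 45.6% (both), 25.1% (neither) and 83.1% (conservative list). Against the other passing peaks, only the members' share in replicate 2 differed by more than its counting error (-6.11 points, -12.1 to -0.14). Support from both was 45.5% for near intronic peaks (difference -3.83 points, -10.5 to 3.01) and 36.7% for distal intergenic ones (difference 4.91, -2.41 to 12.3), and neither difference was larger than its counting error. Promoter peaks were supported by both replicates more often, at 53.9%, a difference of -12.3 points (-18.3 to -6.06).

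**Figure D2:**
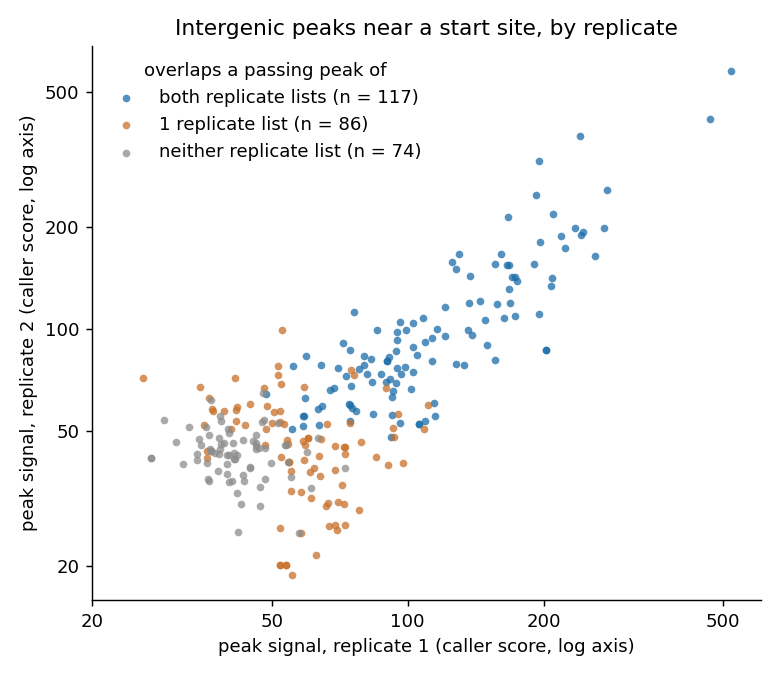
Signal of the strongest overlapping ranked peak in replicate 1 (x axis) and replicate 2 (y axis), caller scores on log axes, 1 point per member with a ranked peak in both. Points are coloured by how many replicates' thresholded lists held an overlapping peak, and those supported by both lie at the upper right.

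The pooled signal of the members had a median of 110 (quartiles 87.8 and 165, range 2.25 to 1092), beside a median of 121 over all passing peaks. In the replicates' own ranked lists the overlapping peaks had a median signal of 63.9 in replicate 1 (280 members with a ranked peak) and 53.5 in replicate 2 (278 members). Of the 100 strongest of all passing peaks 2 were members, and of the 500 strongest 25, beside 281 of all 4476. When the members were ranked by signal and split into 4 groups of like size, 69 of 70 in the strongest group passed in both replicates. The second group had 41 of 70, the third 3 of 70 and the weakest 4 of 71. All 4 in the weakest group (signals 43.0, 8.80, 5.80 and 2.60) overlapped a stronger passing peak. The replicate peaks they overlapped can be those of the stronger peak. Of the weaker 141 members 52.5% passed in neither replicate, against 2.14% of the stronger 140.

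**Figure D3:**
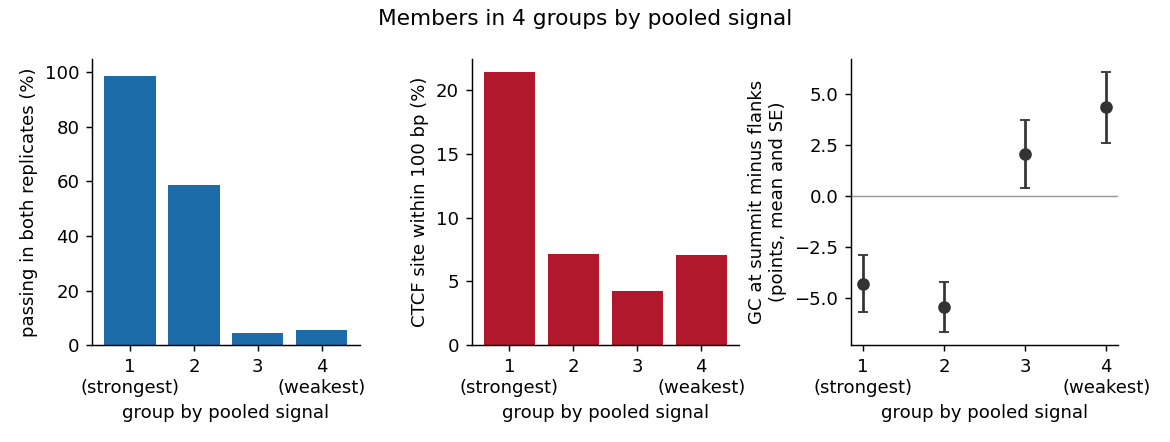
Members in 4 groups by pooled signal (x axis, 1 is the strongest): the share passing in both replicates (left, percent), the share with a CTCF site within 100 bp (middle, percent), and GC content within 50 bp of the summit minus that of flanks 500 bp away (right, points, mean and SE over members). The strongest group against the weakest has 98.6% against 5.63%, 21.4% against 7.04%, and -4.31 against 4.35 points. Members of the weakest group that passed in both replicates all overlap a stronger passing peak. The signal is scored on the pooled reads of the same replicates.

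The strongest peak, near sp3 on 3R (chr3R:21520234-21520504), had a pooled signal of 1092, with 521 in replicate 1 and 576 in replicate 2. It lay 557 bp upstream of sp3, in the 8113 bp between this gene and C15, a homeobox gene. The peak near hll (chr2L:14023943-14024228) had 885 pooled, 467 in replicate 1 and 415 in replicate 2, lay 2921 bp upstream of hll, and sat at the long noncoding RNA gene lncRNA:CR31840. These peaks ranked 36 and 53 of all passing peaks, and both were high in both replicates. The peak near CG14762 (chr2R:8014289-8014512) had 594 pooled and was higher in replicate 2 (370) than in replicate 1 (241). It lay in the 17527 bp between CG14762 and Optix, which encodes a homeodomain protein of eye development, and the genes point away from each other. The jp peak (chr2L:9567401-9567619) had 539 pooled, with 277 and 258 in the replicates, and lay 758 bp upstream of jp. The peak near Cpr76Ba (chr3L:19516616-19516836) had 509 pooled and 195 and 312 in the replicates, 1603 bp downstream of the start of Cpr76Ba.

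The next members by signal that passed in both replicates lay near genes of varied function. The peak 724 bp upstream of nej, which encodes the CBP acetyltransferase, had 476 pooled, 273 in replicate 1 and 199 in replicate 2, and stood between nej and btd, an Sp-family factor of head patterning. The peak 657 bp upstream of RasGAP1, a negative regulator of Ras, had 461 pooled, 244 and 193. The peak 1211 bp upstream of stck, the fly PINCH of integrin adhesion sites, had 433 pooled, 261 and 164. In these 3 peaks replicate 1 was the higher. The peak 726 bp upstream of bark, a component of tricellular junctions, had 432 pooled, 242 and 190. The peak 794 bp upstream of unc-5, a netrin receptor, had 423 pooled, 192 and 248. The peak 1706 bp downstream of the start of Sid had 409 pooled, 219 and 189. The peak 531 bp upstream of Boot had 409 pooled, 210 and 219, and was at a snoRNA host gene. Signals of the replicates come from separately called lists, so the order of the replicates within a peak is a description.

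Most members lay upstream of the nearest start site. There were 230 upstream (81.9%, 76.9 to 85.9%) and 51 downstream of the start, past the end of a gene, while 74.7% of the 8739 ranked summits of the class that did not pass were upstream, a difference of 7.10 points (2.10 to 11.3). In the replicates' own lists 80.6% and 81.9% of members were upstream. The median distance was 1317 bp for members and 1665 bp for summits that did not pass, and the comparisons here were not matched for distance. The members' upstream share was 88.2% with an upper limit of 2000 bp and 73.8% with a lower limit above 1000 bp. The genes flanking a member pointed away from each other (divergent) at 116 members, the same way (tandem) at 139 and towards each other (convergent) at 26. The divergent share was 41.3% against 34.8% of the summits that did not pass (difference 6.53 points, 0.84 to 12.4).

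**Figure D4:**
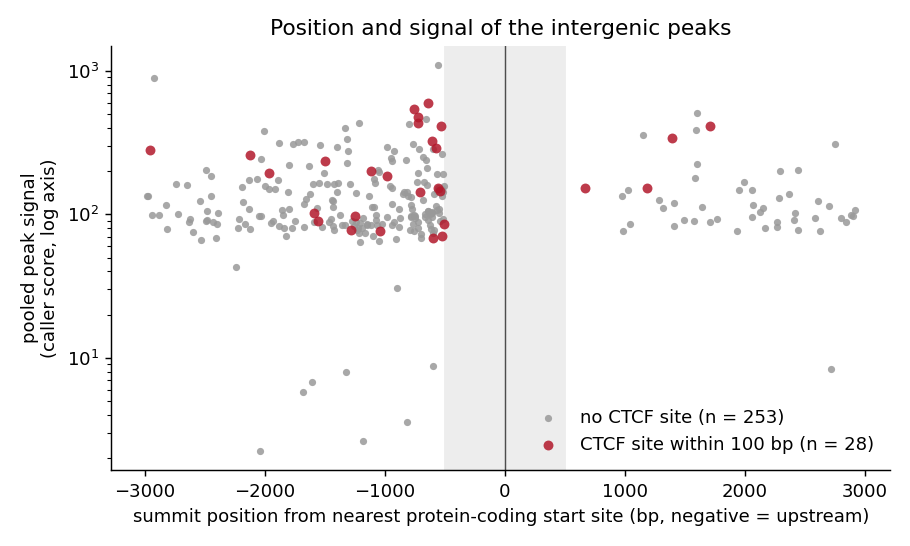
Position of each of the 281 summits from the nearest start site (bp, x axis, negative is upstream) and its pooled signal (y axis, caller score, log axis), with the 28 members that have a CTCF site in red. The shaded span within 500 bp of the start site holds no members by the rule, and upstream points outnumber downstream points 230 to 51.

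The rule's distance limits cut through a continuous range of peaks. Just inside the lower limit were lectin-28C (506 bp, signal 85.5), for (508 bp, 158), a cGMP-dependent kinase gene, and Npc2b (512 bp, 142), and just outside were CycD (497 bp, 86.2), zormin (490 bp, 85.7) and CG15172 (488 bp, 157). Just inside the upper limit were CAH15 (2958 bp, 279), CG12831 (2972 bp, 134) and CG17570 (2982 bp, 134), and just outside were CG42713 (3011 bp, 142), bor (3057 bp, 189) and Vha16-3 (3066 bp, 78.6).

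For some members the promoter of the nearest gene was bound as well. At 75 members (26.7%, 21.9 to 32.2%) the nearest gene also had a passing summit within 500 bp of one of its start sites, compared with 10.2% for class summits that did not pass (difference 16.5 points, 11.6 to 22.0). Near intronic peaks had this more often, at 41.5% (difference -14.8 points, -20.9 to -8.37), and distal intergenic peaks at 20.9% (difference 5.84, -0.52 to 12.4). In the replicates' own lists the members' share was 20.9% in replicate 1 and 20.6% in replicate 2. Within the stronger 50% of all passing peaks it was 13.7%, against 27.5% of near intronic peaks there. That setting also drops the weaker promoter summits, so its share is not comparable with 26.7%. With promoter summits of the full list, the share was 28.6% of the stronger 140 members and 24.8% of the weaker 141.

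Another passing summit lay within 1000 bp of 69 members (24.6%), against 21.2% of the other passing peaks (difference 3.36 points, -1.47 to 8.85). Part of this count was overlapping calls: without peaks that overlap a stronger one it was 46 of 271 (17.0%), against 12.9% of the other passing peaks (difference 4.05, -0.09 to 9.08). It was 11.3% among the stronger 50% of passing peaks, and 16.2% in the list of replicate 2 alone. Both lists hold fewer summits that could lie near. The share was 28.3% for upstream and 7.84% for downstream members, and 19.9% and 4% without the overlapping calls. The 281 members had 255 distinct nearest genes, and 22 genes had more than 1 member. CG5953, Galphaf, Hex-A and aop, the Ets repressor Yan, had 3 each, and in all 4 cases 1 of the members overlapped a stronger peak.

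10 members overlapped a stronger passing peak, and in 9 of these cases the stronger peak was itself a member near the same gene. The exception was a member near CG5953 with a signal of 8.80, beside a promoter peak of 415. All 10 had signals of 43.0 or less, so they account for the low tail of the signal range.

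CTCF sites were more frequent at these summits than at promoter and near intronic peaks, in the pooled list and in both replicates' own lists. The core searched was AGATGGCGC, AGAGGGCGC, AGGTGGCGC or AGGGGGCGC on either strand within 100 bp of the summit. It was present at 28 of 281 members (9.96%, 6.98 to 14.0%) and in 1 of 562 flanking windows centred 500 bp away (0.18%). The share was 2.26% at promoter peaks (difference 7.70 points, 4.64 to 11.8), 2.30% at near intronic peaks (difference 7.66, 4.39 to 11.8), 4.74% at distal intergenic peaks (difference 5.22, 1.36 to 9.61) and 0.70% at class summits that did not pass (difference 9.27, 6.28 to 13.3). The 240 exonic peaks stood closer, at 6.25% (3.82 to 10.1%), an interval that overlapped that of the members. In the replicates' own lists it was 10.2% of 196 members in replicate 1 and 13.8% of 160 in replicate 2, beside 2.43% and 2.89% of their promoter peaks and 2.09% and 3.33% of their near intronic peaks. Distal intergenic peaks stood at 7.91% and 8.80% there, and the differences of 2.30 points (-3.01 to 8.02) in replicate 1 and 4.95 points (-1.43 to 11.9) in replicate 2 were within the counting error, so the excess over distal intergenic peaks held in the pooled list alone.

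**Figure D5:**
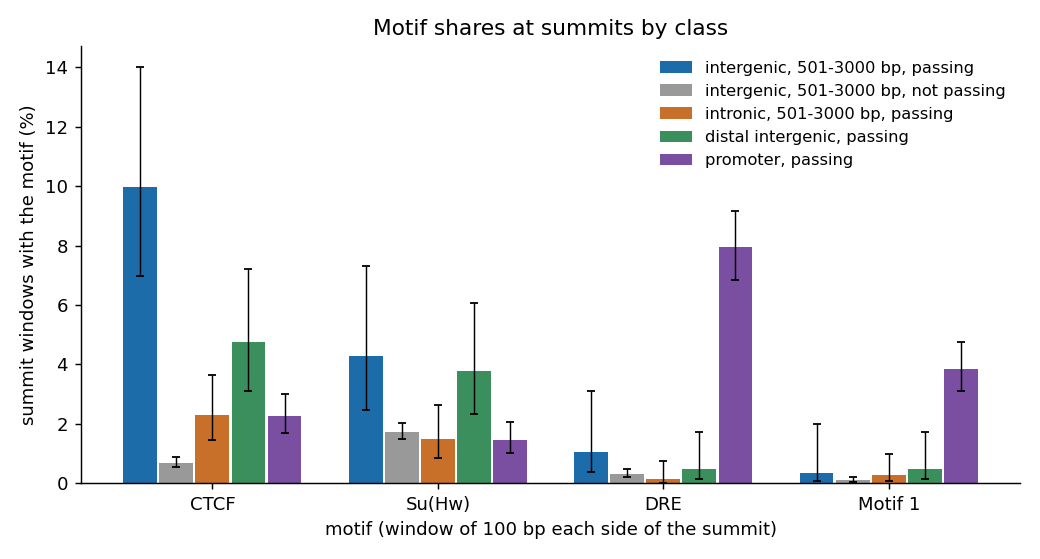
Share of summit windows (100 bp each side) with a CTCF, Su(Hw), DRE or Motif 1 match (percent, y axis), by class of summit, with 95% Wilson bars. Among these classes the members have the highest CTCF share, 9.96%, and the promoter peaks for DRE at 7.94% and Motif 1 at 3.85%.

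The 8 strongest sites among the 21 members with one on 2L, 3L, 3R and X are shown with 11 bases to each side, in the direction of the core, which is in capitals. They are shown because this share differed most between the members and the summits of the class that did not pass among the known insulator sites. The flanking bases varied, with T before the core in 17 of the 28 members.
jp, chr2L:9567473-9567503, minus strand: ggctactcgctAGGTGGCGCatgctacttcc
nej, chrX:9687861-9687891, minus strand: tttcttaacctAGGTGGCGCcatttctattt
bark, chr2L:3786336-3786366, plus strand: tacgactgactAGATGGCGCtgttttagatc
Sid, chr3R:28672410-28672440, minus strand: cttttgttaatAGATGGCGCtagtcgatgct
Gr89a, chr3R:16497512-16497542, minus strand: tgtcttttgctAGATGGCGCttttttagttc
NLaz, chr2L:1362421-1362451, minus strand: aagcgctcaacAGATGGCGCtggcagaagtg
dpr20, chr3L:857731-857761, plus strand: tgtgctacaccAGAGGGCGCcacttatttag
Chsy, chrX:15594621-15594651, minus strand: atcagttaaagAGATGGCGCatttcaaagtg

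The site lay close to the summit, with a median offset of 25.5 bp (range 6 to 91), within 20 bp at 13 members and within 50 bp at 22. Members with a site had a median signal of 189, against 106 for the 253 without, and 19 of the 28 passed in both replicates. That share of 67.9% compared with 38.7% of members without a site (difference 29.1 points, 9.62 to 44.5). Of the 89 ranked summits of the class with a site, 28 passed (31.5%, 22.7 to 41.7%), against 2.83% of those without. Among ranked summits with a site, 26.9% passed at promoters, 16.8% at near introns and 11.98% at distal intergenic positions. The share of members with a site was 15.3% up to 1000 bp from the start site (15 of 98) and 3.70% beyond 2500 bp (1 of 27). Divergent pairs held 16 and tandem pairs 12 of the 28, and 0 of 26 convergent members had a site (upper limit 12.9%). 1 of the 28 had another passing summit within 1000 bp (3.57%), against 26.9% of members without a site (difference -23.3 points, -29.8 to -8.28). Without overlapping calls the latter was 18.5% (difference -14.9, -21.1 to -0.14), and among the stronger 50% of passing peaks the difference was within the counting error (-7.50 points, -16.2 to 11.8).

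Members with a site lay near genes of many kinds. Beside jp, nej, bark and Sid they included Gr89a, a gustatory receptor gene (342 pooled, 208 in replicate 1, 134 in replicate 2), NLaz, a lipocalin gene (322 pooled), Ldh, which encodes lactate dehydrogenase (193 pooled), Atpalpha, the sodium pump alpha subunit (146 pooled), and PGRP-SA, a receptor for bacterial peptidoglycan (77.2 pooled). Signals over the 28 thus spanned 68.1 to 594. The sp3 peak, the strongest of all, lacked the full core but held GATGGCGC, the last 8 bases of AGATGGCGC, 38 bp from the summit. It is shown as a near match, with those bases in capitals.
sp3, chr3R:21520318-21520347, minus strand: ctttagtttccGATGGCGCcactatataca

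Su(Hw) sites were the other known motif above the flanks, though with few sites and not in every list. The core, TGCATACTT or TGCATATTT on either strand, was within 100 bp of 12 summits (4.27%, 2.46 to 7.32%) and in 6 of 562 flanking windows (1.07%), which is 4 times as many (ratio interval at 95%: 1.52 to 10.6). The share was 1.44% at promoter peaks, 1.49% at near intronic, 3.79% at distal intergenic peaks and 1.74% at class summits that did not pass. In the own list of replicate 2 the ratio to the flanks was 2.29 (0.84 to 6.19), and among the weaker 141 members 2.67 (0.61 to 11.7), both within the counting error. With a window of 50 bp the share was 2.13%. 6 of the 12 passed in both replicates. The strongest on 2L, 3L, 3R and X are shown, with the core in capitals. NimC3 is a member of the Nimrod family of phagocytosis receptors, and Act5C encodes a cytoplasmic actin.
l(3)mbn, chr3L:6129747-6129777, minus strand: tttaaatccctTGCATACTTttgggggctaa
NimC3, chr2L:14022168-14022198, minus strand: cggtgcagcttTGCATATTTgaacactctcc
Act5C, chrX:5900215-5900245, plus strand: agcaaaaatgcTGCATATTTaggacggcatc

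A longer shared sequence, to which no factor was assigned here, surrounded the word AACGAACT at 8 members. The word was found among the 20 words of 8 bases most above the flanks at the other off-promoter passing summits, and it occurred within 50 bp of 8 member summits and of 1 of 562 flanks. The members with it also shared bases outside the word: of the 11 positions before it, 8 held the same base in all 8 members, while most positions after it varied. The 5 on 3L, 3R and X are shown, with the word in capitals.
l(3)mbn, chr3L:6129768-6129797, minus strand: atgacttaggcAACGAACTttttaaatccc
CG10597, chrX:17229821-17229850, plus strand: atgacttaagcAACGAACTttggcacagcg
CG14362, chr3R:13857020-13857049, minus strand: aagacttaggcAACGAACTtgaagcaaacg
cm, chrX:7008248-7008277, plus strand: aagactgaggcAACGAACTcgtgtcgcccg
CG43203, chr3R:19356462-19356491, plus strand: aagactcaggcAACGAACTtgctttcagtt

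With up to 2 mismatches over these 8 positions and the 8 of the word, 16 in all, the sequence was within 50 bp of 8 members (2.85%, 1.45 to 5.52%), 15 near intronic peaks (2.03%), 15 distal intergenic peaks (3.55%), 10 promoter peaks (0.48%) and 7 of 8739 class summits that did not pass (0.08%). The positions were read from these 8 members, so the members' count is a description. The l(3)mbn peak had 295 pooled, with 130 in replicate 1 and 167 in replicate 2, and also held a Su(Hw) core. The CG10597 peak had 152 pooled, 74.4 and 87.0, and also held a CTCF core. The other 6 had between 86.7 and 126 pooled. 3 of the 8 passed in both replicates, so most of these peaks were of modest strength.

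Motifs of broadly active promoters were rarer here than at promoter peaks, as they were in the other off-promoter classes. DRE, TATCGATA, was at 3 members (1.07%) against 7.94% of promoter peaks (difference -6.87 points, -8.30 to -4.57), and Motif 1, CGGTCACAC or TGGTCACAC, at 1 member (0.36%) against 3.85% (difference -3.49, -4.45 to -1.70). DRE was at 0.14% of near intronic and 0.47% of distal intergenic peaks, and Motif 1 at 0.27% and 0.47%; the members' differences from these were within the counting error. Motif 7 was at 4 members (1.42%) against 12.8% of promoter peaks. The 20 words of 8 bases that were most above the flanks at promoter summits occurred at 7 members (2.49%). This was close to 13 of 562 flanks (2.31%) and 2.79% of class summits that did not pass. Their count at promoter summits, 415 of 2079, is largely built in, because the words were chosen there. The 20 words taken from the other off-promoter passing summits occurred at 61 members (21.7%), against 66 of 562 flanks and 7.30% of class summits that did not pass. Of the 21 motifs searched, CTCF and Su(Hw) were the 2 whose share exceeded the flanks by more than the counting error.

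Base composition at the summit changed with signal. GC content within 50 bp of the summit minus that of the flanks was -0.82 ± 0.80 points (SE, n = 281 members), and 5.49 points over class summits that did not pass. The strongest of the 4 signal groups had -4.31 and the second -5.47 points, whereas the third had 2.06 and the weakest 4.35. The members of replicate 1's own list had -5.01 ± 0.85 (SE, n = 196) and those of replicate 2 had -1.25 ± 0.99 (SE, n = 160). GC content also moves with motif counts: the TATA box, TATAAA or TATATA, was at 37.7% of members against 19.7% of class summits that did not pass, but at 33.6% of the members' own flanks. The part of base composition in which peaks passed was not tested.

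Noncoding genes were near intergenic peaks, the members among them, more often than near promoter or near intronic peaks. A noncoding gene lay within 500 bp of 51 summits (18.1%, 14.1 to 23.1%), against 12.2% of class summits that did not pass (difference 5.97 points, 1.85 to 11.0), 7.60% of promoter peaks and 5.95% of near intronic peaks. Distal intergenic peaks had one at 23.0%, and the difference of -4.84 points (-10.7 to 1.36) was within the counting error, so this was not particular to intergenic peaks near a start site. At 49 of them the annotation gives the gene's type as ncRNA. The kek4 peak, at the spliceosomal snRNA:U2:34ABb, had 168 pooled, 83.1 in replicate 1 and 81.8 in replicate 2. The peak near CG1142, at snRNA:7SKa, the RNA that holds the elongation kinase P-TEFb inactive, had 98.4 pooled, 46.1 and 44.3, and passed in neither replicate. The muc peak, at the microRNA gene mir-275, had 196 pooled, 109 and 91.7. The PIG-K peak, at mir-2496, had 84.0 pooled, 48.2 and 45.4, and passed in replicate 2 alone. No member was at a tRNA gene, against 0.32% of class summits that did not pass, and 2 summits lay in an annotated transposable element.

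The gene lists were short, and most had few members or none. Of the 3231 genes that were nearest to a ranked summit of the class, 255 (7.89%) were nearest to a member. None of 25 segmentation and patterning genes was (upper limit 13.3%), and the same held for 7 heat shock, 3 hormone, 2 mitochondrial ribosomal protein and 1 insulator gene. Signalling genes had 4 of 13 (30.8%, 12.7 to 57.6%), the list with the highest share: aop (161 pooled, 106 in replicate 1, 52.5 in replicate 2), fz, a Wnt and planar polarity receptor (142 pooled, 97.8 and 40.4), pnt, an Ets activator (118 pooled, 64.4 and 78.4), and kay, the fly Fos. The neuronal list had 3 of 16: robo2, a Slit receptor (134 pooled, 59.1 and 62.6), dpn, a bHLH factor of neuroblasts (88.7, 39.8 and 37.5), and so, a homeodomain factor of eye development (74.0, 48.0 and 67.2). The dpn peak passed in neither replicate, the peak near the gene so in replicate 2 alone, and the fz peak in replicate 1 alone.

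The mesoderm list had 2 of 11, bin (164 pooled, 84.0 and 56.3) and lmd (158 pooled, 109 and 53.5), which encode a FoxF factor and a zinc finger factor of myoblast fusion. Muscle genes had 2 of 9, the actins Act87E (116 pooled, 72.7 and 44.9) and Act88F (88.0 pooled, 46.9 and 44.6). The Act87E peak passed in replicate 1 alone and the Act88F peak in neither replicate. The chromatin list had 1 of 6, ph-d, a Polycomb group gene beside its copy ph-p (310 pooled, 158 and 118). Cytosolic ribosomal proteins had RpS15Aa (125 pooled, 52.3 and 68.9) and RpS23 (113 pooled, 52.2 and 53.2), 2 of 18. The RpS15Aa peak passed in replicate 2 alone and the RpS23 peak in replicate 1 alone. Cuticle genes had 3 of 50, chemoreceptors 1 of 71, and zinc finger factors 2 of 8, lola and ken. These lists are short and their intervals wide, from 0.25 to 7.56% for the chemoreceptors to 12.7 to 57.6% for the signalling genes. The member nearest to the CG11247 gene itself was 349470 bp away.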

How the data were processed

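Peak lists of ChIP-seq from 2 replicates of embryos, made by the authors on dm6 per the labels, were read as deposited. The deposited signal is a caller's score without a fixed range, and the deposited ranked lists hold the −log10 irreproducible discovery rate. The labels name neither aligner nor peak caller. A further 16 columns of the pooled ranked lists name no sample and were not used. Replicate values are those of the strongest overlapping peak (at least 1 bp) in that replicate's own ranked list.

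Summits were annotated with 13945 protein-coding genes of Ensembl release 115 and read against the RefSeq Release 6 genome. The tools were Python 3.11.15, numpy 2.4.6, statsmodels 0.14.6 and matplotlib 3.10.9. Shares have 95% Wilson intervals and their differences Newcombe intervals, and the counting code was tested on simulated data. The members, motifs and gene lists were chosen with earlier results of these data known. Named peaks are the 12 strongest that passed in both replicates and overlapped no stronger peak, the strongest per arm, those nearest the distance limits, and up to 4 by signal in each gene list and in each class of small RNA gene. The peaks shown for their CTCF, Su(Hw) or AACGAACT sequence were chosen after their values were seen. Alternatives covered the peak list, signal, distance limits, windows, overlaps and noncoding genes.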

Additional observations from a re-analysis of the deposited data

Results flagged for a closer look

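Signal outside the thresholded list was seen at 8 class summits. They were past the limit of an irreproducible discovery rate of 0.01 in the pooled ranked list and absent from the pooled thresholded list, and over the arms 118 summits were like this. The strongest was near tara on 3R, 1139 bp upstream, with a signal of 623, above all but the 2 strongest members. The others were near Rh5 (3 summits, 257, 154 and 116), COX7AL2 (192), SIFaR (170), Hacd1 (97.0) and aus (87.1).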

How the results depend on the processing

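Peak lists without read numbers limit these results, and most of the weaker 141 members passed in the pooled reads alone or in 1 replicate. Of 131 values under an alternative, 97 stayed within the interval of the value reported (for the number of motifs, within 1.5 times). A further 34 moved. A reversal was defined only for GC content, and its reported interval included 0, so no value could be labelled reversed. Some moves follow from the setting itself, as given with them below, and the cause of the others was not tested. Adding the 8 absent peaks or leaving out summits at noncoding genes, both chosen after seeing the data, moved none. Between the replicates' own lists the share that passed ranged from 1.90 to 2.63% and upstream from 80.6 to 81.9%. The promoter also bound ranged from 20.6 to 20.9% and overlap with a stronger peak from 1.88 to 2.55%. GC ranged from -5.01 to -1.25 points and motifs above flanks from 1 to 3. Summits within 1000 bp ranged from 16.2 to 19.4%, noncoding genes from 18.9 to 21.9% and CTCF from 10.2 to 13.8%. The ratio of median signals ranged from 0.91 to 0.95. Overlap with a passing peak of the other replicate was 58.7% in replicate 1's list and 73.1% in replicate 2's. Each peak overlaps itself in its own list, so these shares are not comparable with the 41.6% supported by both in the pooled list.

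With the stronger 50% of passing peaks, support was 85.5%, overlap 0%, GC -4.96 points and CTCF 16.1%. Leaving out passing peaks by itself lowers 3 other values. They were the share that passed (1.38% of the same 9020 ranked summits), the promoter also bound (13.7%) and summits within 1000 bp (11.3%). Leaving out peaks that overlap a stronger one gave 17.0% within 1000 bp and, by definition, overlap 0%. The conservative list gave an overlap of 7.06%. An upper limit of 2000 bp gave 3.66% passing and 88.2% upstream; a lower limit above 1000 bp gave 2.60% and 73.8%. A reciprocal overlap of 50% gave support of 32.7%, a distance of 200 bp noncoding genes at 13.2%, and a background of summits that did not pass 7 motifs. Comparison classes were put through the same settings after seeing the data. No paired analysis was possible because there is 1 group.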
